A study of Mus musculus with 8 samples.

Results

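The type I interferon response genes described here are 44 mouse genes that cells switch on after interferon alpha or beta binds its receptor. They were chosen by name from a list that groups them by role, with older names of the same gene accepted. Earlier results of these data were known when the list was made, so the counts below describe it and do not test it. A probe was matched for 42 of the 44, and none matched for Dtx3l and Xaf1. The probe of Oas1g was too dim for the filter on low signal, so 41 of the 44 could be measured, among 19962 features tested in all. The files name Ifi44l as H28, Irf9 as Isgf3g, Dhx58 as D11Lgp2e, Cmpk2 as Tyki and Herc6 as Herc5.

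The RNA came from bone-marrow-derived pro/pre-B cells of Pax5-/- mice, grown with IL-7 on irradiated OP9 cells, a stromal feeder line. Every RNA of the study has this Pax5-/- background, and Pax5 is the factor by which progenitors become committed B lineage cells. The tested RNAs were clone 4 cells given 10 ng/ml, 300 ng/ml or 1000 ng/ml doxycycline, and Pax5sz2 cells. Clone 4 is a single clone with 2 retroviral vectors, one for rtTA, a transactivator that doxycycline switches on, and one for human Pax5 (huPax5), driven by the TRE promoter to which rtTA binds. Pax5sz2 cells have rtTA and no huPax5, and their label says that they received doxycycline but not how much. Every one of the 4 RNAs was set against RNA of clone 4 without doxycycline (0 ng/ml) on a dye-swapped pair of dual-colour Agilent arrays, which makes 8 arrays. Clone 4 and Pax5sz2 are different cells, so the transgene, doxycycline and the cells' own differences cannot be told apart in that comparison.

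A comparison therefore rests on 1 RNA sample read on 2 technical arrays. No replicate cultures are labelled, a single comparison has no p-value, and every ± below is the SD of 2 arrays. Values are log2 ratios of the named RNA over clone 4 without doxycycline unless they are called levels, which are log2 intensities of 1 RNA. A gene is said to be past the size when its ratio was at least 2-fold (log2 of 1 or more) in the same direction on both arrays. Across genes, the ratios of the 2 arrays of a comparison correlated at r = 0.835 with 10 ng/ml, 0.641 with 300 ng/ml, 0.829 with 1000 ng/ml and 0.922 in Pax5sz2.

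The 1000 ng/ml pair stands apart and its direction is not settled. Over 41174 probes its ratios opposed the 300 ng/ml ratios of the same dye orientation, with r = -0.359 when the named RNA was in Cy5 and r = -0.46 when it was in Cy3. In the same order r was -0.17 and -0.208 with the 10 ng/ml arrays, and -0.277 and -0.132 with those of Pax5sz2. Whether the labels of the pair are swapped was not tested. Per the file headers the pair was scanned on another day under an older scanner protocol, so dose and scan cannot be told apart for it. Its channels had between 40.0% and 44.8% of probes well above background, and those of the 6 other arrays between 58.7% and 75.4%, under different settings of that call. Values of the pair are given as labelled, and with the sign turned where a main count or a test rests on them. Turning the sign makes every higher value or count of the pair a lower one of the same size.

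Type I interferons act through the receptor chains Ifnar1 and Ifnar2 and the kinases Jak1 and Tyk2, which phosphorylate STAT proteins such as Stat2. With Irf9 these form the complex ISGF3, which binds interferon-stimulated response elements beside target genes. The targets include RNA sensors, enzymes that degrade or edit viral RNA, the ubiquitin-like protein ISG15 and its protease Usp18, and Irf7, which carries the response further. Some of these genes are transcribed at a low level in cells that have met no virus.

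The interferon-stimulated response element has a core of 2 GAAA repeats with any 2 bases between them, which was searched on both strands in RefSeq promoter windows of GRCm38.p6, from 250 bases before to 50 bases after the annotated start. A window was at hand for 35 of the 44 genes, and 14 of these (40%) held the core, against 1079 of 27025 genes (3.99%) in the whole table. A longer form, the core followed by CT, was found in 7 of the 35 (20%), against 0.303% of all genes. The STAT dimer motif TTCNNNGAA was found in 8 of the 35 (22.9%), against 9.55% of all genes. These are matches of letters within a short window, and they describe the genes without showing that a factor bound. The windows below belong to the 4 genes with the highest ratios at 10 and 300 ng/ml whose window holds the core, and to Ifi44l, the first gene in that order whose window holds none. Each is written 5′ to 3′ on the gene's strand, with the matched core on either strand in capitals.
Isg15, chr4:156200769-156201068, minus strand: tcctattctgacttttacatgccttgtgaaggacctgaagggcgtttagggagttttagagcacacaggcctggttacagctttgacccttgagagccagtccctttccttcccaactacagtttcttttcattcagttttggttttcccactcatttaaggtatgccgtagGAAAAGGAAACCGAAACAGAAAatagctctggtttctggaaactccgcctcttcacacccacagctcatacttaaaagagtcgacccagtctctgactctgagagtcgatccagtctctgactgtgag
Cxcl10, chr5:92348840-92349139, minus strand: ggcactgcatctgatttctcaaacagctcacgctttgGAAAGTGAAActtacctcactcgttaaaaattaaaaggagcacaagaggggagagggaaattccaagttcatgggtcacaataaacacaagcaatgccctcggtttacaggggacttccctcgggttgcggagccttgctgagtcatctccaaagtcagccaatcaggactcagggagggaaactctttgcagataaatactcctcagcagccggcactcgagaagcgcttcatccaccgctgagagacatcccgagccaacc
Ifit3, chr19:34583279-34583578, plus strand: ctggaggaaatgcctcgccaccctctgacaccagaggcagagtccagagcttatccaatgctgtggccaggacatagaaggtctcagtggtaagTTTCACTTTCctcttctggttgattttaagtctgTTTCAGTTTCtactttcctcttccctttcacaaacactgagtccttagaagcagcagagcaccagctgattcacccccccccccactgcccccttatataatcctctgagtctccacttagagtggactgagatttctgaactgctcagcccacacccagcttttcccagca
Ifit1, chr19:34640639-34640938, plus strand: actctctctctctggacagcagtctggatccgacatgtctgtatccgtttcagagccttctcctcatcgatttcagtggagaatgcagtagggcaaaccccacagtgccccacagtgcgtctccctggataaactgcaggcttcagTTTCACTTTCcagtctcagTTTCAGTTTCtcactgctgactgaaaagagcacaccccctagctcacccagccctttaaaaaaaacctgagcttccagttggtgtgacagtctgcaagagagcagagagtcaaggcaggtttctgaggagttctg
Ifi44l, chr3:151762842-151763141, minus strand: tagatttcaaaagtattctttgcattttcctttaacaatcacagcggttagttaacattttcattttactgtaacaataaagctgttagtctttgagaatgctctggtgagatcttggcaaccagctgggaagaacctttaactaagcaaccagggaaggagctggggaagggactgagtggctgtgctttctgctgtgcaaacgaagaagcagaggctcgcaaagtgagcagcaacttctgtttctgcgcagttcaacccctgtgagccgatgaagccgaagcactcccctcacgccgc

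Isg15 held 3 overlapping cores, the first of which began at position -78 relative to the start. Ifit3 and Ifit1 each held 2 separate cores on the other strand, and Cxcl10 held 1 core, at position -213. Of the 14 genes with the highest mean ratio at 10 and 300 ng/ml, 10 had a window and 5 of these held the core. Cores were also found in Rsad2, which is the fifth of these, and in Bst2, Oas1a, Ifih1, Ddx58, Stat2, Oas3, Trim21, Eif2ak2 and Oas1g, which are not among the 14.

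**Figure D1:**
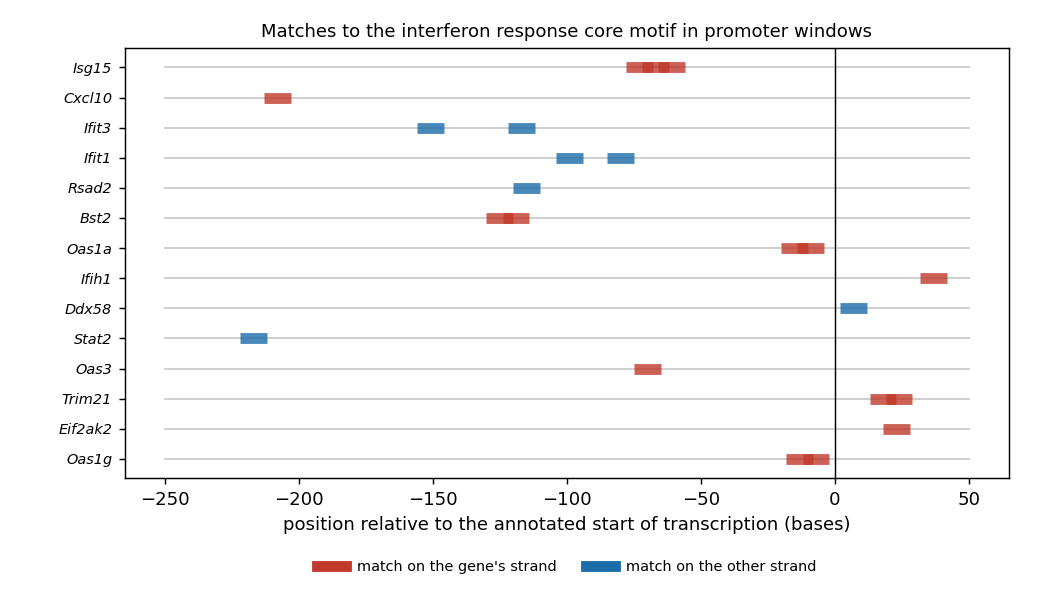
Positions of the response element core (2 GAAA repeats, 2 bases apart) in the promoter windows of the 14 genes that hold it, in bases from the annotated start, which is marked by a vertical line; red marks a match on the gene's own strand and blue one on the other strand. Isg15 has 3 overlapping matches, Ifit3 and Ifit1 have 2 each, and the match in Cxcl10 lies farther from the start than theirs.

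At 10 ng/ml the interferon response genes were mostly higher than in clone 4 without doxycycline. Of the 41 measured, 11 were past the size higher and 0 lower, where 0.596% of all features were past the size higher and 1.27% lower. At 300 ng/ml 12 were past the size higher and 0 lower, against a background of 1.31% higher and 2.36% lower. In Pax5sz2, 8 were past the size higher and 0 lower, against 2.34% and 2.83% of all features. At 1000 ng/ml, as labelled, 2 were past the size higher and 0 lower, against 1.94% and 0.636%. With the sign of that pair turned these become 0 higher and 2 lower. These cells were measured in bulk, so fewer cells of a type and less RNA per cell cannot be told apart.

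The shift covered more of the list than the genes past the size. The median ratio of the measured genes was 0.58 with 10 ng/ml, 0.67 with 300 ng/ml, 0.34 with 1000 ng/ml and 0.34 in Pax5sz2. Over all features the medians were 0.01, 0.00, 0.00 and 0.03 in the same order. Ratios were above 0 on both arrays for 34 of 41 genes with 10 ng/ml, where 38.5% of all features were. They were above 0 on both arrays for 30 of the 39 genes read on both 300 ng/ml arrays (36.1% of all features) and for 28 of 41 in Pax5sz2 (41.9%). At 1000 ng/ml as labelled 27 of 41 were, against 33.9% of all features, and 7 were below 0 on both arrays. With the sign turned the median with 1000 ng/ml was -0.34, and those counts change places. Centring each array on its median in place of the intensity-dependent normalization changed these counts. It left 31 genes above 0 on both arrays with 10 ng/ml, 22 with 300 ng/ml, 4 with 1000 ng/ml as labelled and 28 in Pax5sz2.

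**Figure D2:**
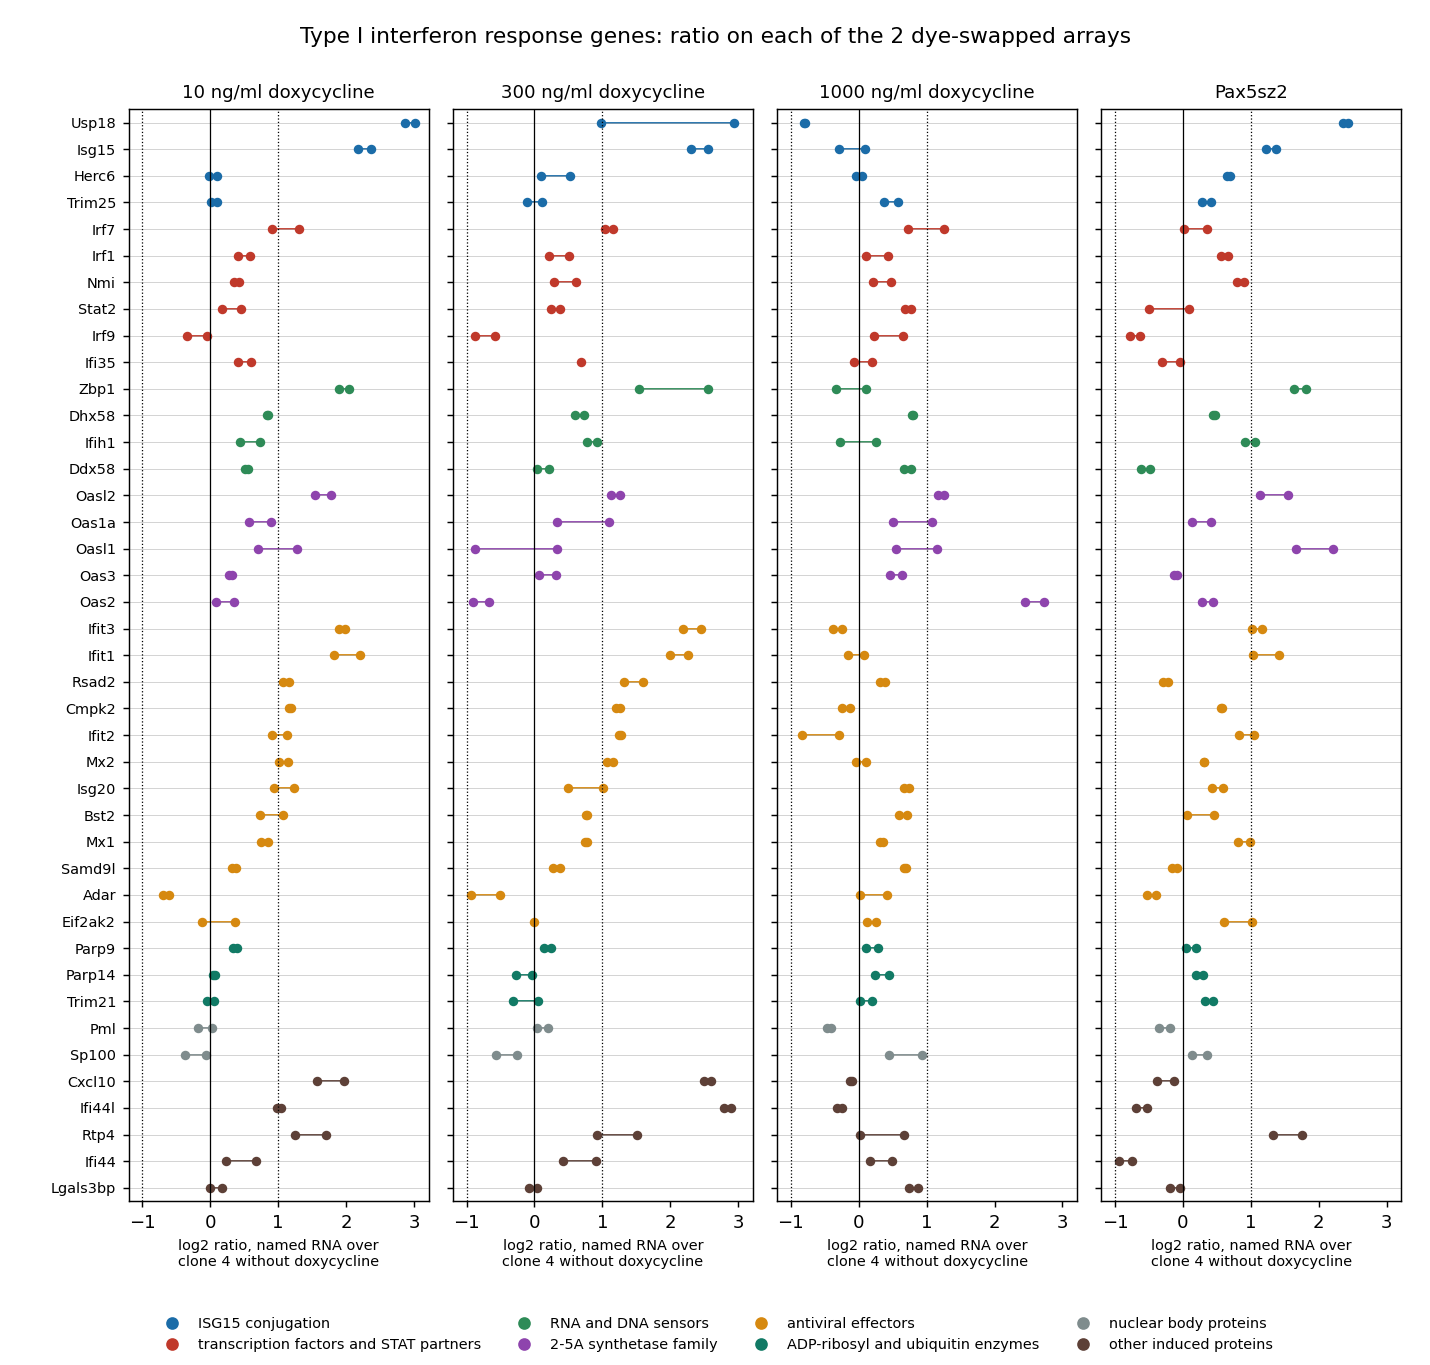
Log2 ratio of the named RNA over clone 4 without doxycycline for the 41 measured genes, ordered by role, in the 4 comparisons; the 2 points of a gene are its 2 dye-swapped arrays, joined by a line, and the dotted lines mark a 2-fold ratio. Usp18, Isg15, Zbp1, Ifit3 and Ifit1 lie at the right with 10 ng/ml and in Pax5sz2, while with 1000 ng/ml Oas2 and Oasl2 alone have both points beyond the right dotted line.

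**Figure D3:**
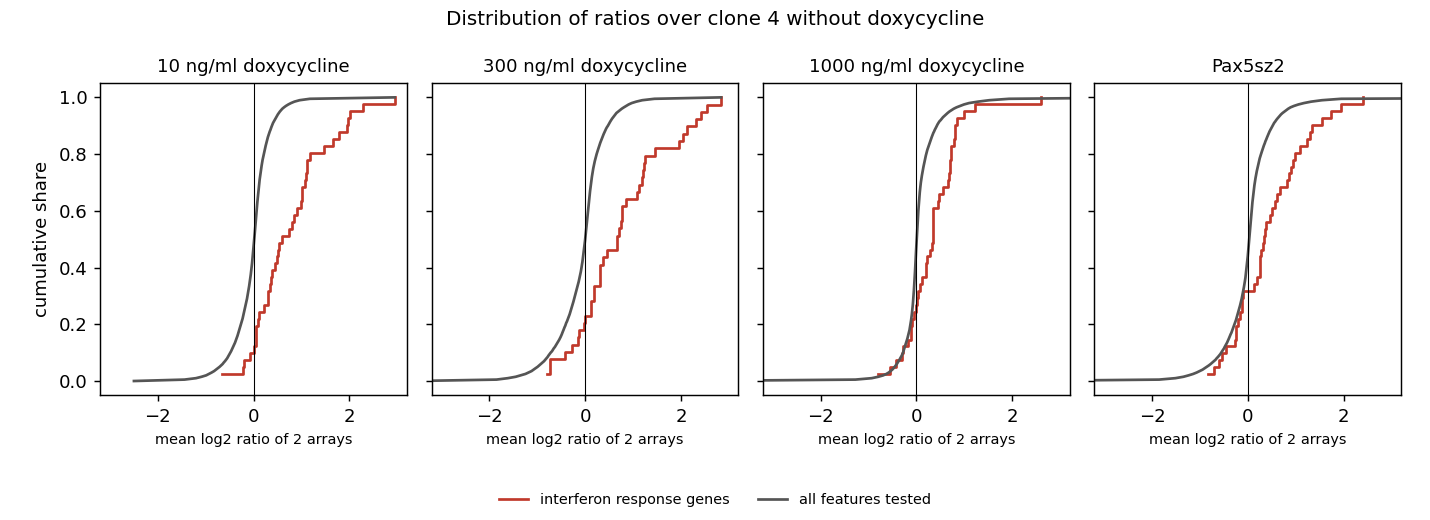
Cumulative share of genes by their mean log2 ratio over clone 4 without doxycycline, for the measured interferon response genes (red) and all features tested (grey), in the 4 comparisons; the axis stops at log2 ratios of 3.2 in either direction. The red curve runs to the right of the grey one over most of its length at 10 and 300 ng/ml, with medians of 0.58 and 0.67.

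ISG15 is a ubiquitin-like protein that is joined to other proteins during the response. Usp18 encodes the protease that removes it and that also damps the interferon receptor. Usp18, with its probe at chr6:121236114-121236173 (mm8), had ratios of 3.02 and 2.87 on the arrays of 10 ng/ml, 0.98 and 2.93 with 300 ng/ml, -0.79 and -0.80 with 1000 ng/ml and 2.35 and 2.42 in Pax5sz2. It was thus the highest of the genes with 10 ng/ml and in Pax5sz2, and its 300 ng/ml arrays lay far apart. Its level with 10 ng/ml was 12.25 ± 0.11, against 9.31 ± 0.22 in clone 4 without doxycycline, a 7.68-fold ratio. In Pax5sz2 the level was 11.67 ± 0.04, against 9.28 ± 0.09 in clone 4 without doxycycline, a 5.24-fold ratio.

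Isg15 had ratios of 2.18 and 2.37 with 10 ng/ml, 2.56 and 2.30 with 300 ng/ml, 0.10 and -0.28 with 1000 ng/ml and 1.23 and 1.37 in Pax5sz2. All 6 arrays outside the 1000 ng/ml pair placed it past 2-fold, and the 1000 ng/ml arrays split around 0. Its probe is annotated in the files at chr17:45870420-45870479 (mm8), whereas RefSeq places the gene on chromosome 4. The other members of this group moved little by their brightest probes. Herc6, the ligase for ISG15 in mouse, lay between -0.04 and 0.70 on all arrays and Trim25, a ubiquitin ligase of RNA sensing, between -0.11 and 0.58. A second Trim25 probe gave 0.80 with 10 ng/ml, 1.26 with 300 ng/ml, -0.27 with 1000 ng/ml and 0.91 in Pax5sz2, unlike the brightest.

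Among the transcription factors of the response, Irf7 was past the size, with 300 ng/ml. Irf7 amplifies interferon transcription, and its ratios were 0.91 and 1.31 with 10 ng/ml, 1.04 and 1.15 with 300 ng/ml, 1.26 and 0.73 with 1000 ng/ml and 0.02 and 0.36 in Pax5sz2. The mean was 1.11 with 10 ng/ml, 1.09 with 300 ng/ml and 0.19 in Pax5sz2, while with 1000 ng/ml it was 1.00 as labelled and as far below 0 with the sign turned. Its level averaged 9.59 in Pax5sz2, against 9.40 in clone 4 without doxycycline. Stat2 and Irf9, both parts of ISGF3, were not past the size, and Stat2 lay between -0.49 and 0.77. Irf9 gave -0.05 and -0.34 with 10 ng/ml, -0.87 and -0.59 with 300 ng/ml, 0.66 and 0.22 with 1000 ng/ml and -0.64 and -0.77 in Pax5sz2. Irf9 was thus below 0 on every array outside the 1000 ng/ml pair, which was the opposite of most genes of the list, although with each array centred on its median it averaged 0.05 with 10 ng/ml. Irf1, a factor that interferons induce, stayed between 0.11 and 0.67. Nmi, which binds STAT proteins, lay between 0.22 and 0.91 as labelled, and with the sign of the 1000 ng/ml pair turned its ratios there were -0.22 and -0.47. Ifi35, the partner of Nmi, was read on 7 arrays, since its spot on 1 of the 300 ng/ml arrays was marked as an outlier, and lay between -0.31 and 0.68.

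The sensors detect foreign nucleic acid inside the cell. Zbp1, which binds Z-form nucleic acid and can start cell death, had ratios of 2.05 and 1.90 with 10 ng/ml, 1.54 and 2.56 with 300 ng/ml, -0.33 and 0.11 with 1000 ng/ml and 1.64 and 1.81 in Pax5sz2. It was past the size in every comparison but 1000 ng/ml. Its level in Pax5sz2 was 10.20 ± 0.25, against 8.48 ± 0.13 in clone 4 without doxycycline. Dhx58, the regulator LGP2 of RNA sensing, stayed between 0.45 and 0.85 as labelled and reached 2-fold on none of the 8 arrays, and its 1000 ng/ml ratios with the sign turned were -0.79 and -0.78. Ifih1, which encodes MDA5, had 0.91 and 1.06 in Pax5sz2 and lay between 0.44 and 0.92 at 10 and 300 ng/ml, but its other probe averaged -0.05 in Pax5sz2. Ddx58, which encodes RIG-I, averaged 0.54 with 10 ng/ml and -0.55 in Pax5sz2, where its other probes ranged between -0.04 and 1.61.

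The 2-5A synthetases make the small RNA that activates RNase L, and the Oasl proteins are their relatives. Of 5 measured, 1 was past the size with 10 ng/ml, 1 with 300 ng/ml, 2 with 1000 ng/ml and 2 in Pax5sz2. Oasl2 had ratios of 1.78 and 1.54 with 10 ng/ml, 1.26 and 1.12 with 300 ng/ml, 1.26 and 1.17 with 1000 ng/ml and 1.55 and 1.14 in Pax5sz2. It alone of the 41 genes was past the size in all 4 comparisons as labelled. With the 1000 ng/ml sign turned its mean there was -1.21. Oasl1 had 1.27 and 0.70 with 10 ng/ml, -0.88 and 0.33 with 300 ng/ml, 1.16 and 0.55 with 1000 ng/ml and 2.21 and 1.66 in Pax5sz2. Oasl1 was therefore past the size in Pax5sz2 and in no dose, and its 300 ng/ml arrays differed in sign.

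Oas2 differed from all others of the list with 1000 ng/ml. Its ratios were 0.08 and 0.35 with 10 ng/ml, -0.91 and -0.67 with 300 ng/ml, 2.45 and 2.73 with 1000 ng/ml and 0.28 and 0.45 in Pax5sz2. At 1000 ng/ml its level was 11.66 ± 0.11, against 9.07 ± 0.09 in clone 4 without doxycycline. On the other arrays the level in clone 4 without doxycycline averaged between 11.96 and 12.05, so the ratio of 2.59 comes with a control reading that differs from the rest. A second Oas2 probe gave 0.09 with 1000 ng/ml, and with the sign turned the brightest probe gives -2.59. The ratios of Oas1a, a synthetase, ran between 0.13 and 1.09, and those of Oas3, another synthetase, between -0.13 and 0.64, neither past the size in any comparison.

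**Figure D4:**
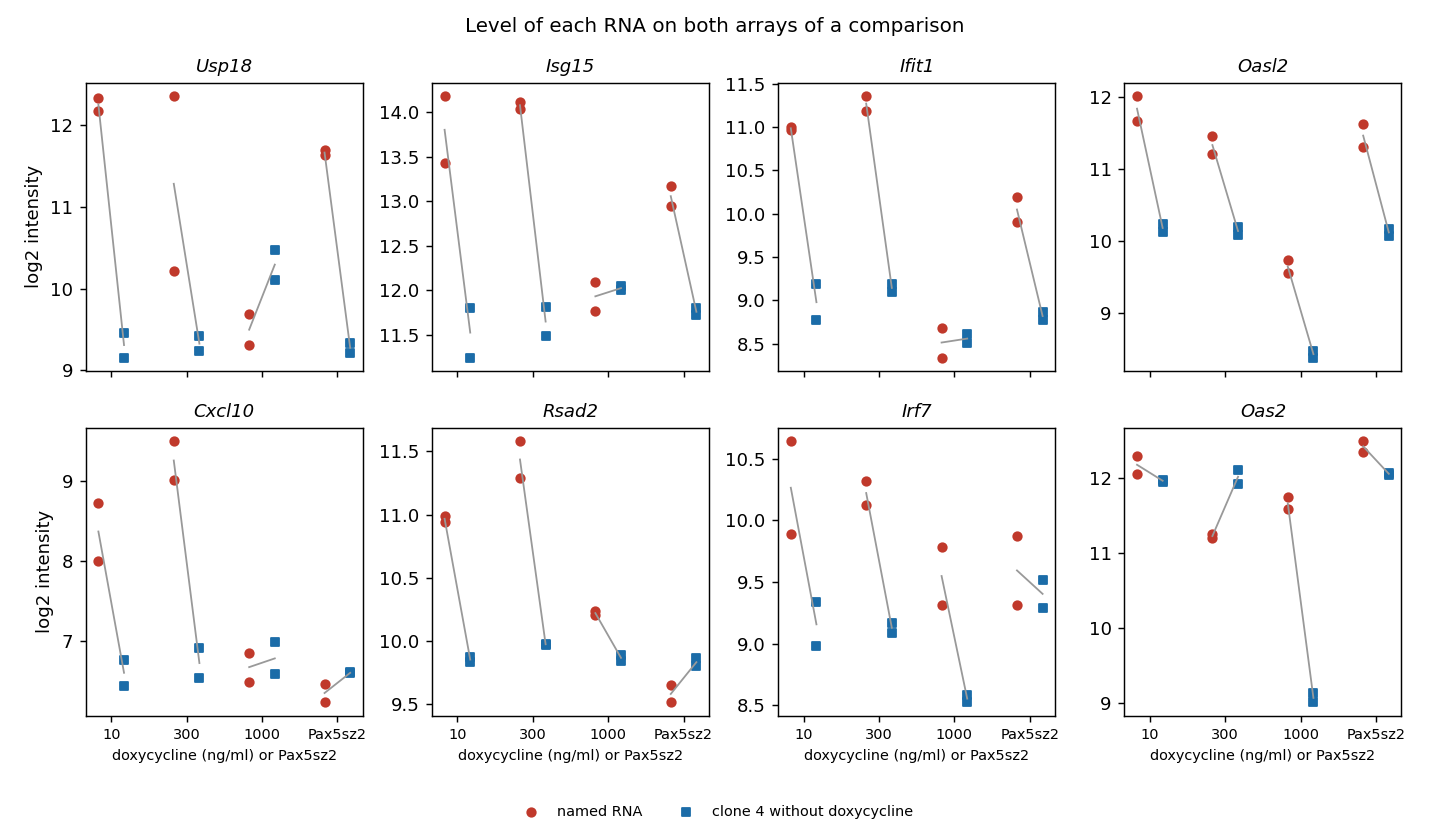
Level (log2 intensity) of 8 genes in each named RNA (red circles) and in clone 4 without doxycycline (blue squares) on the same arrays, with a line between the means of the 2 arrays; the vertical scale differs between genes. For Usp18, Isg15 and Ifit1 the blue squares of the 10 ng/ml, 300 ng/ml and Pax5sz2 arrays lie at like heights below the red circles, and for Oas2 the blue squares with 1000 ng/ml lie at 9.07, far below those of the other arrays.

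The antiviral effectors act on viral RNA, particles or nucleotides. Of 12 measured, 5 were past the size with 10 ng/ml, 6 with 300 ng/ml, 0 with 1000 ng/ml and 2 in Pax5sz2, all higher. The Ifit genes lie together on chromosome 19 and encode proteins that bind viral RNA. Ifit1 had ratios of 1.82 and 2.20 with 10 ng/ml, 2.00 and 2.26 with 300 ng/ml, -0.16 and 0.07 with 1000 ng/ml and 1.04 and 1.42 in Pax5sz2. Ifit3, whose protein stabilises Ifit1 in human cells, had 1.90 and 1.98 with 10 ng/ml, 2.46 and 2.19 with 300 ng/ml, -0.37 and -0.24 with 1000 ng/ml and 1.02 and 1.17 in Pax5sz2. Both were past the size with 10 ng/ml, 300 ng/ml and in Pax5sz2, at a higher ratio with the 2 doses than in Pax5sz2. Ifit2 had 0.90 and 1.13 with 10 ng/ml, 1.27 and 1.25 with 300 ng/ml, -0.83 and -0.29 with 1000 ng/ml and 0.83 and 1.05 in Pax5sz2. A second Ifit2 probe stayed between -0.11 and 0.31, so the probes of this gene disagree, while the second Ifit3 probe gave 1.86 with 10 ng/ml, 2.22 with 300 ng/ml and 0.58 in Pax5sz2.

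Rsad2 and Cmpk2 are neighbours on chromosome 12, with probes at chr12:27029262-27029321 and chr12:27065522-27065581 (mm8). Rsad2 encodes viperin, which makes a chain-ending nucleotide from CTP, and Cmpk2 encodes a nucleotide kinase that supplies CTP. Rsad2 had ratios of 1.16 and 1.07 with 10 ng/ml, 1.60 and 1.32 with 300 ng/ml, 0.32 and 0.39 with 1000 ng/ml and -0.29 and -0.22 in Pax5sz2. Cmpk2 had 1.16 and 1.19 with 10 ng/ml, 1.26 and 1.21 with 300 ng/ml, -0.13 and -0.24 with 1000 ng/ml and 0.57 in both arrays of Pax5sz2. Both were past the size at 10 and 300 ng/ml and neither in Pax5sz2, where the pair had opposite signs. That opposition depends on the scaling and the probe, since Rsad2 averaged 0.04 in Pax5sz2 with each array centred on its median, and a second Cmpk2 probe gave -0.19 there.

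Mx2, a dynamin-like GTPase, had ratios of 1.01 and 1.15 with 10 ng/ml, 1.07 and 1.16 with 300 ng/ml, -0.05 and 0.11 with 1000 ng/ml and 0.31 and 0.32 in Pax5sz2. Its relative Mx1 lay between 0.75 and 0.98 on the arrays outside the 1000 ng/ml pair and was not past the size. The ratios of Isg20, an RNA exonuclease, were between 0.43 and 1.24 on all arrays, and those of Bst2, which tethers virus particles to the cell, between 0.05 and 1.07. Samd9l and Eif2ak2, which encodes the kinase PKR, stayed between -0.16 and 1.02. Adar, an RNA editing enzyme, was the lowest gene of the list with 10 ng/ml, with -0.70 and -0.61, and had -0.94 and -0.51 with 300 ng/ml. A second Adar probe gave 1.06 with 10 ng/ml and 0.95 with 300 ng/ml, so the direction of this gene depends on the probe.

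The 3 measured enzymes of ADP-ribosylation and ubiquitination, Parp9, Parp14 and Trim21, lay between -0.31 and 0.45 by their brightest probes and none was past the size. The nuclear body genes Pml and Sp100 lay between -0.56 and 0.94 by their brightest probes, also with none past the size. A second Pml probe gave 0.58 with 10 ng/ml and 0.65 with 300 ng/ml, where the brightest averaged -0.08 and 0.12. Other Sp100 probes ranged from 0.08 to 0.43 with 10 ng/ml and from -0.19 to 0.58 with 300 ng/ml, where the brightest averaged -0.22 and -0.41.

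The last group holds induced proteins of other kinds. Cxcl10, a chemokine that attracts T and NK cells, had ratios of 1.97 and 1.57 with 10 ng/ml, 2.60 and 2.49 with 300 ng/ml and -0.38 and -0.13 in Pax5sz2. At 1000 ng/ml neither RNA was well above background for it. Its level was 9.26 ± 0.34 with 300 ng/ml, against 6.72 ± 0.27 in clone 4 without doxycycline. Ifi44l had 1.04 and 0.98 with 10 ng/ml and 2.89 and 2.79 with 300 ng/ml, the highest mean of the list with 300 ng/ml. In Pax5sz2 it was not well above background, and its level there was at least 1.48-fold lower than in clone 4 without doxycycline. Its second probe gave 0.61 with 10 ng/ml and 2.22 with 300 ng/ml.

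Rtp4, which modulates interferon signalling in mouse cells, was past the size with 10 ng/ml and in Pax5sz2. Its ratios were 1.24 and 1.70 with 10 ng/ml, 0.92 and 1.51 with 300 ng/ml, 0.02 and 0.67 with 1000 ng/ml and 1.33 and 1.75 in Pax5sz2. Its level with 10 ng/ml was 15.49 ± 0.22, against 14.02 ± 0.11 in clone 4 without doxycycline, and in clone 4 without doxycycline its mean differed by at most 0.07 between the 4 comparisons. Ifi44 had -0.94 and -0.75 in Pax5sz2, where a second probe gave 1.25, and Lgals3bp lay between -0.19 and 0.88.

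The genes that were high at 10 and 300 ng/ml fell into those also past the size in Pax5sz2 and those not. Usp18, Isg15, Ifit1, Ifit3, Zbp1, Oasl2 and Rtp4 were past it in Pax5sz2 and with 10 ng/ml. Cxcl10, Rsad2, Cmpk2 and Mx2 were past it at both doses and had ratios of 0.57 or less in Pax5sz2. Pax5sz2 was also set against the mean of the 3 doses. The control cancels there only where clone 4 without doxycycline read alike in every pair, which for Oas2 with 1000 ng/ml it did not. This contrast called 0 of 19710 features in limma at an adjusted p under 0.05. At an unadjusted p under 0.05 it had 1430 features, among them 7 of the 39 genes fitted, of which 2 were higher and 5 lower in Pax5sz2 (3.82% and 3.43% of all features). Without the 1000 ng/ml pair it again called 0 features, with 3750 at an unadjusted p under 0.05. Of the 39 genes 17 were among these, 3 higher and 14 lower in Pax5sz2 (10.4% and 8.54% of all features), and the difference farthest from 0 among these 17 was -2.41 for Cxcl10. Ifi44l had a difference of -2.53 with an unadjusted p of 0.0721 in limma. With the sign of the 1000 ng/ml pair turned, the contrast called 12 features (0.0609%) and 0 of the 39 genes, with 2155 features at an unadjusted p under 0.05. Of the 39 genes 3 were among these, 3 higher and 0 lower in Pax5sz2 (6.32% and 4.61% of all features), so the balance of directions depends on that pair. These fits used the intensity-dependent normalization, under which the list's median was 0.58 with 10 ng/ml, 0.67 with 300 ng/ml and 0.34 in Pax5sz2. With each array centred on its median it was 0.82, 0.82 and 0.80. How far the list's median lay lower in Pax5sz2 thus depends on the scaling. The fit lacks Ifi35 and Eif2ak2, which have no value on 1 of the 300 ng/ml arrays.

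For the mean effect of doxycycline over the 3 doses, limma called 0 of 19710 features, with 1167 at an unadjusted p under 0.05. Of the 39 genes, 17 had an unadjusted p under 0.05, all higher with doxycycline, where 3.18% of all features were higher and 2.74% lower at that p. The smallest adjusted p was 0.701. Irf7 had an effect of 1.07 ± 0.06 (SE) and Oasl2 one of 1.35 ± 0.13 (SE), but with the sign of the 1000 ng/ml pair turned these were 0.40 ± 0.52 (SE) and 0.54 ± 0.66 (SE). This fit counts differences between doses as spread and leaves out the spread of the control RNA. For Pax5sz2 the same fit called 0 features, with 2084 at an unadjusted p under 0.05. Among these were 9 of the 39 genes, 8 higher and 1 lower (5.57% and 5% of all features), and their smallest adjusted p was 0.217. With the sign of the 1000 ng/ml pair turned, 0 of the 39 genes were called for doxycycline and 0 for Pax5sz2, where 0 and 0.416% of all features were. At an unadjusted p under 0.05 the genes were then 5 higher and 3 lower for doxycycline (9.73% and 14.9% of all features) and 5 higher and 1 lower for Pax5sz2 (9.03% and 9.6%).

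The calls depend on the 1000 ng/ml pair. Without it, which leaves the arrays of 1 scan day, limma called 2871 of 19779 features for doxycycline, 5.7% higher and 8.82% lower, at an adjusted p under 0.05. Of the 39 genes 21 were called, 20 higher and Adar lower. Isg15 had an effect of 2.35 ± 0.07 (SE) with an adjusted p of 0.0377, Ifit3 one of 2.13 ± 0.13 (SE) with an adjusted p of 0.0377, and Usp18 one of 2.45 ± 0.29 (SE) with an adjusted p of 0.0423 in limma. Genes short of the 2-fold size were also called, such as Mx1 at 0.78, Bst2 at 0.83 and Dhx58 at 0.75. For Pax5sz2, 701 features were called (3.54%), 1.61% of all features higher and 1.93% lower. They included Isg15 at 1.30, Ifit1 at 1.23, Zbp1 at 1.73 and Rtp4 at 1.54, all higher, which were 4 of the 39 genes. In this fit Pax5sz2 is 1 sample whose spread is taken from the doses.

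Clone 4 without doxycycline was read on every array. The median difference of the list between the control channels was 0.05 for the 300 ng/ml arrays minus the Pax5sz2 arrays and -0.05 for the 10 minus the 300 ng/ml arrays. These levels had been scaled between arrays, which draws such medians together, and single genes differed both ways, 17 of 39 being lower on the 300 ng/ml than on the Pax5sz2 arrays. Of the 41 genes, all were well above background with 10 ng/ml, and all were in clone 4 without doxycycline on the same arrays. In clone 4 without doxycycline 39 were on the 300 ng/ml arrays, where 39 were read on both. There were 38 on the 1000 ng/ml arrays and 41 on the Pax5sz2 arrays. The median level of the list was 11.30 with 10 ng/ml, against 10.32 in clone 4 without doxycycline. Most of these genes thus gave signal in clone 4 without doxycycline too. Cxcl10, Ifi44l and Mx1 were low there, with mean levels between 6.56 and 6.98. Probes of close relatives, such as the Ifit, Oas and Mx genes, may also bind each other's RNA, and this was not tested.

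The genes upstream of the response were measured next to it. None of 11 measured interferon ligand genes was past the size in any comparison, and their ratios ran between -0.18 and 0.35. Ifnb1, which encodes interferon beta, averaged 0.33 with 10 ng/ml and -0.07 in Pax5sz2, and was not well above background in clone 4 without doxycycline. Ifnar1 averaged between -0.20 and 0.16 in the 4 comparisons. Of 11 receptor, kinase and STAT genes, 0 were past the size higher with 300 ng/ml, 2 with 1000 ng/ml and 0 in Pax5sz2. As labelled Stat3 was the 1 gene past the size lower, with -2.24 and -1.40 in Pax5sz2. Ifngr1 and Stat3 were the genes past it with 1000 ng/ml, at 1.75 and 1.07 as labelled, named after their values were seen, and with the sign turned both were past it lower there. The summed intensity of the 11 genes was 113773 with 1000 ng/ml as labelled, against 47641 in clone 4 without doxycycline. That control sum was 98673 on the 10 ng/ml arrays, 110272 on the 300 ng/ml arrays and 94195 on the Pax5sz2 arrays. Stromal genes did not show this, with control sums between 29370 and 38246. None of 14 genes of upstream sensing and signalling was past the size in any comparison.

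Of 8 negative regulators of the pathway, Socs1, an inhibitor of JAK kinases, was the gene past the size. It had 1.18 and 1.23 with 10 ng/ml, 1.27 and 1.16 with 300 ng/ml, 1.13 and 1.04 with 1000 ng/ml and 0.56 and 0.68 in Pax5sz2, and with the sign turned its mean with 1000 ng/ml was -1.09. Among 16 genes of the interferon gamma response, Iigp1, a GTPase, had 2.01 and 2.24 with 10 ng/ml, 2.44 and 2.87 with 300 ng/ml, -0.45 and 0.01 with 1000 ng/ml and 3.43 and 3.56 in Pax5sz2. Its relatives Irgm1, at 1.37 ± 0.08 with 300 ng/ml, and Irgm2, at 1.97 ± 0.16 in Pax5sz2, were also past the size, as was Tap2, named after its value was seen, at 1.39 ± 0.01 with 1000 ng/ml. Of 35 further interferon-stimulated genes, 3 were past the size higher and 0 lower with 10 ng/ml, 3 and 1 with 300 ng/ml, 1 and 2 with 1000 ng/ml, and 1 and 2 in Pax5sz2. Tor3a averaged 1.31 with 10 ng/ml, 2.01 with 300 ng/ml and -1.60 with 1000 ng/ml. Slfn2 averaged 1.99 with 300 ng/ml and -2.48 with 1000 ng/ml, while Ifitm1 ran the other way, at -1.69 and 2.37. These 3 genes thus had opposite signs at 300 and 1000 ng/ml as labelled, and the same signs if the 1000 ng/ml pair is turned.

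Markers of the OP9 feeder were mostly higher at 10 and 300 ng/ml, where the interferon response genes were also mostly higher. Of 19 measured stromal genes, 3 were past the size higher with 10 ng/ml, 7 with 300 ng/ml, 0 with 1000 ng/ml and 3 in Pax5sz2, with 0, 0, 0 and 1 lower. The 1 lower was Acta2, at -1.07 in Pax5sz2. Their median ratio was 0.72 with 10 ng/ml, 0.95 with 300 ng/ml, -0.04 with 1000 ng/ml and 0.13 in Pax5sz2. The medians of the interferon response genes were 0.58, 0.67, 0.34 and 0.34 in the same order, as labelled. The summed stromal intensity was 54542 with 10 ng/ml, against 35301 in clone 4 without doxycycline. It was 51237 against 29370 with 300 ng/ml, 37257 against 35146 with 1000 ng/ml, and 48937 against 38246 for Pax5sz2, each time the named RNA against clone 4 without doxycycline. Cxcl12, a chemokine of stroma, was at 1.45 ± 0.01 with 10 ng/ml, 1.75 ± 0.28 with 300 ng/ml and 1.78 ± 0.12 in Pax5sz2. Col3a1, a collagen gene, was at 1.27 ± 0.05 with 10 ng/ml and 1.91 ± 0.06 with 300 ng/ml. Lum and Fap, also stromal genes, were not well above background with 10 ng/ml, 300 ng/ml or 1000 ng/ml. The part of feeder RNA in the ratios of the interferon response genes was not tested.

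Markers of other cell types were measured as well. Of 10 macrophage and monocyte genes, Mrc1 alone was past the size, at -1.99 with 300 ng/ml and higher with 1000 ng/ml as labelled, where clone 4 without doxycycline was not well above background for it, and the list's summed intensity was 4350 with 10 ng/ml against 4445 in clone 4 without doxycycline. It was 2982 against 4622 with 300 ng/ml, 4597 against 2512 with 1000 ng/ml as labelled, and 4592 against 4604 for Pax5sz2, in the same order. Of 7 measured genes of plasmacytoid and dendritic cells, the main makers of type I interferon, 0 were past the size with 10 ng/ml. Siglech and Itgax were past it lower with 300 ng/ml, where they were not well above background, and Flt3 was past it higher with 1000 ng/ml, where clone 4 without doxycycline was not well above background for it. In Pax5sz2 Ccr9 was past it higher, at 1.62. Of 16 markers of pro-B cells, 14 were well above background with 10 ng/ml and 16 in Pax5sz2, and Igll1 and Vpreb1 were the 2 that were not with 10 ng/ml. Their median ratio was -0.47 with 10 ng/ml, -0.23 with 300 ng/ml, -0.25 with 1000 ng/ml and -0.14 in Pax5sz2, below 0 where that of the stromal genes was above 0 at 10 and 300 ng/ml. Their summed intensity was 91978 with 10 ng/ml, against 139589 in clone 4 without doxycycline, and 90618 with 300 ng/ml, against 125784 in clone 4 without doxycycline. It was 138402 against 165752 with 1000 ng/ml and 376011 against 146314 for Pax5sz2, in the same order, and the part of this in the ratios of the interferon response genes was not tested. Pax5sz2 differed from clone 4 in these markers, with the surrogate light chain genes Igll1 at 5.65 ± 0.44 and Vpreb1 at 7.88 ± 0.94, and Dntt, the polymerase that adds bases at V(D)J joints, at -4.89 ± 0.32.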

How the data were processed

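The members and gene lists were chosen with earlier results of these data known. Per the labels' protocols, TRIzol was used to isolate total RNA, and both RNAs of a pair were labelled with Cy3 and Cy5 in a dye swap. Per the file headers, the authors' scanner files give, for each channel, a mean spot intensity and a local background intensity that are not normalized, and a log10 ratio made by Feature Extraction (version 10.5.1.1; the submitters' processing notes name the same software). The deposited series matrix holds log10 ratios that equal those of the scanner files.

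From the deposited intensity values, background was corrected with normexp (offset 50) and log2 ratios were normalized within arrays by loess, with control spots at weight 0, in limma 3.58.1 under R 4.3.3. Outlier spots (37 to 295 per array) were left out, and no spot was saturated. Signs were turned so that a positive log2 ratio means higher in the named RNA. Spots of a probe were averaged and each gene was read from its brightest probe. Features entered the tests where an RNA read well above background for the probe on both of its arrays in at least 1 comparison. Levels came from the same arrays after Aquantile scaling. Probe positions are the files' own (mm8), and symbols were updated through RefSeq for 33048 of 41174 probes.

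Single comparisons used the size rule, with no test. Mean effects were fitted with limma on the 4 averaged ratios, with 2 residual degrees of freedom, two-sided, with Benjamini-Hochberg adjustment over all features. Fits with a pair left out have fewer degrees of freedom. Values on each array are given for the 14 members with the highest mean ratio at 10 and 300 ng/ml and for each member past the size at 1000 ng/ml or in Pax5sz2, and the other members by ranges. From the other lists, genes past the size were named, up to 4 by their mean over 10 and 300 ng/ml and up to 4 in Pax5sz2. Further genes given to show a group (other probes, receptors, ligands and genes at 1000 ng/ml) were chosen after their values were seen. The size rule and the fit were tested on simulated data. The number of arrays limits the precision. Alternatives covered normalization, background, the filter on dim probes, the probe per gene, each array left out and the 1000 ng/ml pair left out or turned.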

Additional observations from a re-analysis of the deposited data

How the results depend on the processing

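No paired analysis was possible because the replicate numbers only name the 2 dye-swapped arrays of 1 RNA pair. With each array centred on its median the list's median was 0.82 with 10 ng/ml, 0.82 with 300 ng/ml, 0.21 with 1000 ng/ml and 0.80 in Pax5sz2, where the median of all features was 0.15. The count with 1000 ng/ml was then 1. All features then split into 73 higher and 75 lower with 10 ng/ml (119 and 254 under loess), 95 and 384 with 300 ng/ml (261 and 472), and 476 and 204 in Pax5sz2 (467 and 565). No gene past the size changed sign under any scaling tried. The scanner's own log ratio and the series matrix each gave 4 genes higher with 1000 ng/ml and 1 lower in Pax5sz2. The median with 300 ng/ml was 0.56 over genes well above background in every comparison. It was also 0.56 with all probes of a gene averaged, which gave 0.20 with 1000 ng/ml and 0.26 in Pax5sz2.

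On single arrays the list's median ran from 0.56 to 0.67 with 10 ng/ml, 0.24 to 0.37 with 1000 ng/ml and 0.33 to 0.43 in Pax5sz2, and the count with 1000 ng/ml from 2 to 5. At a 1.5-fold size, 19 genes were higher and 1 lower with 10 ng/ml (624 and 1044 of all 19962 features), 18 and 2 with 300 ng/ml (1002 and 1500), 10 and 1 with 1000 ng/ml (955 and 409), and 14 and 2 in Pax5sz2 (1280 and 1510). At a 3-fold size, 5 were higher with 10 ng/ml (30 of all features), 5 with 300 ng/ml (59), 1 with 1000 ng/ml (148) and 3 in Pax5sz2 (154). With the 1000 ng/ml sign turned, 0 were higher and 2 lower there, the median was -0.34, Oasl2 was at -1.21 and Oas2 at -2.59.

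In limma the calls among the 39 genes were 0 for each contrast. Without the 1000 ng/ml pair they were 21 for doxycycline and 4 for Pax5sz2. With each array counted as a sample, which treats dye swaps as cultures, they were 11 for doxycycline (346 of all 19710 features), 9 for Pax5sz2 (1820) and 3 for the difference (832). Without the 10 or the 300 ng/ml arrays they stayed at 0, and the cause of these differences was not tested.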
